A study of Mus musculus with 4 samples.

Results

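V(D)J recombination machinery here means 10 listed genes whose products cut the antigen receptor loci, join the broken ends or add nucleotides to them: *Rag1*, *Rag2*, *Dntt*, *Lig4*, *Xrcc4*, *Dclre1c*, *Prkdc*, *Xrcc5*, *Xrcc6* and *Nhej1*. The list goes by function. Each gene was read from its probe set with exactly 1 symbol in the array annotation, taking the one with the highest mean where a gene had several. Of the 10 genes, 9 had such a probe set, 1 each, among 19938 genes on the array, and *Dclre1c* was not analysed here. ILC87-Ik1-ER cells were measured on 4 Affymetrix Gene ST 1.0 arrays. For 2 arrays the cells had been exposed to 100 nM 4-hydroxytamoxifen (4OHT) for 24 h, and for the other 2 to the vehicle, ethanol (EtOH), for the same 24 h. All 4 samples are one line, which grew out of a thymic tumour of an Ikaros f/f mouse carrying Lck-cre (strain label C57BL/6, whereas the study's methods describe such mice as of mixed strain background), so that the floxed gene was deleted in T-lineage cells. The line carries a MigR1 retrovirus for Ik1-ER, a fusion of Ikaros-1, the full-length isoform, with a hormone-binding part of the oestrogen receptor, and GFP as a sorting marker, and 4OHT brings this protein into the nucleus. No array of 4OHT-treated cells without Ik1-ER was analysed here, so effects of 4OHT itself and of Ik1-ER cannot be told apart.

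V(D)J recombination assembles the variable parts of T-cell and B-cell receptors from separate gene segments in developing lymphocytes. The RAG1 and RAG2 proteins together bind signal sequences beside the segments and cut the DNA there, which leaves hairpin-sealed coding ends. The hairpins are opened by Artemis, the product of *Dclre1c*, within a complex with DNA-PKcs, and the ends are joined by classical non-homologous end joining. Terminal deoxynucleotidyl transferase (TdT), the product of *Dntt*, adds nucleotides to the open ends without a template and so widens the receptor repertoire. In the thymus the *Rag* genes are used in double-negative cells for the β-, γ- and δ-chain loci and again in double-positive cells for the α-chain locus, and Ikaros proteins are known to bind the *Dntt* promoter in mouse thymocytes.

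The values are log2 expression values after RMA, and limma was run on all 35556 probe sets to compare 4OHT with EtOH. A gene was called lower or higher in 4OHT-treated cells at a Benjamini-Hochberg adjusted p under 0.05. The array medians were 7.11 to 7.16. The deposited values carry no detection calls. Nothing says that the 2 samples of a treatment came from separate cultures, so the p-values cover the spread between these samples alone, and that spread may be technical. For a single gene, an exact permutation test of 2 against 2 arrays cannot go below p = 0.33 (two-sided). *Ikzf1*, the gene that encodes Ikaros, had values of 12.91 and 12.78 with 4OHT, against 12.76 and 12.79 with EtOH. Whether the probes of this gene also detect the transgene is not stated. The T-cell origin of the line was borne out by *Thy1*, *Cd3e* and *Cd3g*, whose values were 12.49 or higher on every array. Of 7 measured T-cell markers, *Cd5* was called higher and *Cd3d* lower, beside 1.23% of all genes called higher and 2.99% lower. At an unadjusted p under 0.05 from limma there were 6 of the 7, beside 20.4% of all genes. The linear values of the list summed to 27547 and 28127 with 4OHT, against 32957 and 33330 with EtOH.

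Of the 9 measured genes of the V(D)J machinery, only *Dntt* was called lower after 4OHT and none was called higher. Over all genes, 2.99% were called lower and 1.23% higher in this comparison. At an unadjusted p under 0.05 there were 4 of the 9 genes, *Dntt* and *Xrcc5* with lower and *Lig4* and *Xrcc6* with higher values in 4OHT-treated cells. Over all genes, 20.4% had an unadjusted p under 0.05. Counted by arrays that do not overlap, 2 genes had both 4OHT values below both EtOH values and 6 had both above, whereas 24.5% of all genes had lower and 32.1% had higher values by this count. The median log2 fold change of the 9 genes was 0.18 (4OHT over EtOH), beside 0.03 over all genes. The genes thus differed among themselves, with log2 fold changes between −0.99 and 0.46.

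**Figure D1:**
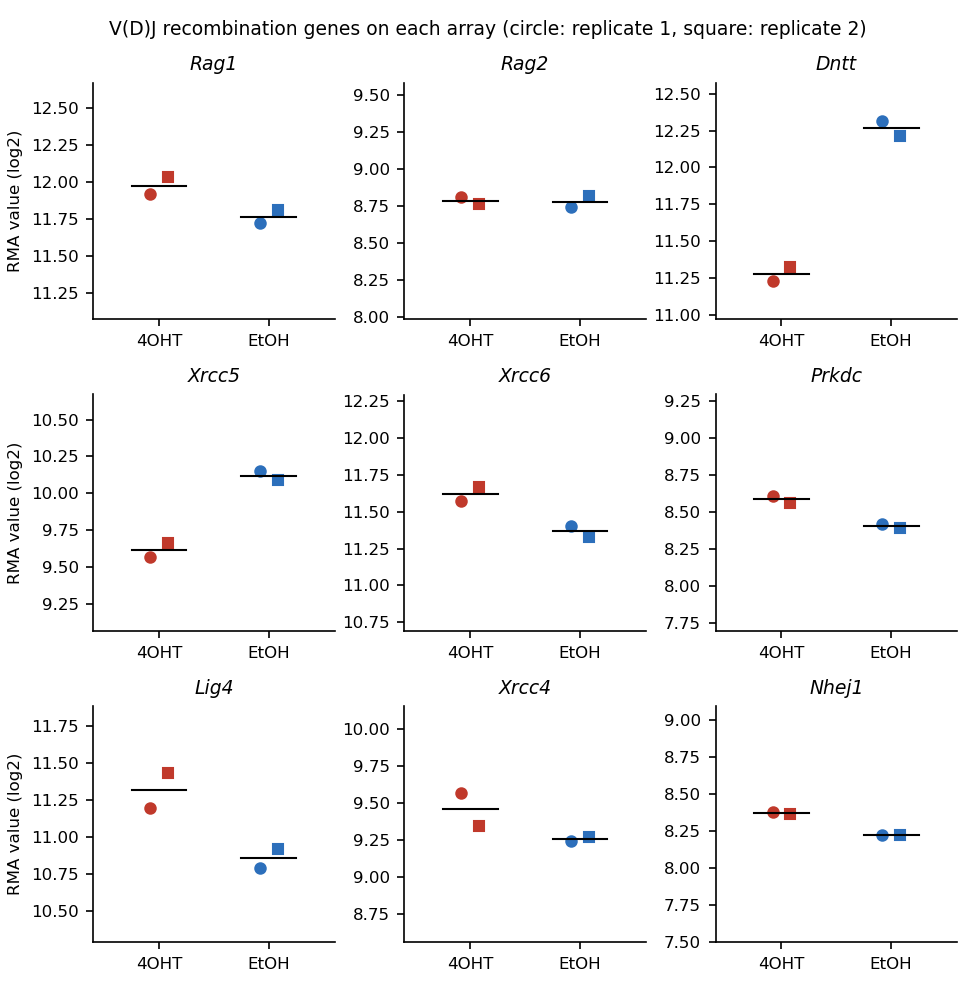
RMA values (log2) of the 9 measured V(D)J recombination genes on each array, 4OHT in red on the left and EtOH in blue on the right of each panel, with circles for replicate 1, squares for replicate 2 and black lines for the means (n = 2 arrays). All panels span the same 1.6 log2 units, so distances can be compared between genes; *Dntt* has the widest gap, with 11.23 and 11.33 in 4OHT-treated and 12.32 and 12.21 in EtOH-treated cells, while the *Rag2* values overlap.

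*Dntt*, which encodes TdT, had values of 11.23 and 11.33 on the 4OHT arrays, against 12.32 and 12.21 on the EtOH arrays. Both 4OHT arrays lay at least 0.89 below either EtOH array, whereas the arrays of a treatment lay 0.10 apart in both cases. The mRNA level was 1.98-fold lower after 4OHT (adjusted p = 0.0166 from limma, log2 fold change −0.99 with a standard error of 0.083). The 95% interval of the log2 fold change ran from −1.21 to −0.77, that is from a 2.31-fold to a 1.70-fold lower level. In order of log2 fold change *Dntt* stood at place 208 from the lowest of 19938 genes. In bulk samples, fewer cells that express a gene and less RNA per cell cannot be told apart. The probe set is annotated to 2 RefSeq transcripts of *Dntt*, so that the short and long forms of mouse TdT could not be separated. When any 1 of the 4 arrays was left out, *Dntt* missed the test, with log2 fold changes of −1.04 to −0.94 and adjusted p of 0.0534 to 0.146 (limma with 1 residual degree of freedom). The 3 genes called lower whose 4 values, taken relative to the EtOH mean, were nearest to those of *Dntt* by Euclidean distance over the 4 arrays were *Nfkb2*, a subunit gene of NF-κB (distance 0.068), the arylsulphatase gene *Arsi* (0.074) and *Kdelr3*, a receptor that returns proteins to the endoplasmic reticulum (0.090), among 596 compared.

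TdT is a member of the X family of DNA polymerases, together with the polymerases μ and λ, which fill gaps during end joining. *Polm*, the gene of polymerase μ, had 7.76 and 7.67 with 4OHT and 7.59 and 7.55 with EtOH (log2 fold change 0.15, 95% interval −0.05 to 0.35). *Poll*, the gene of polymerase λ, had 7.12 and 7.17 with 4OHT and 7.26 and 7.07 with EtOH (log2 fold change −0.02, 95% interval −0.27 to 0.23). Neither passed the test, and neither interval reached that of *Dntt*. *Poll* lay near the array medians and *Polm* slightly above them in both treatments.

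Neither gene of the cutting enzyme was called. *Rag1* had values of 11.91 and 12.03 with 4OHT, against 11.72 and 11.81 with EtOH. The 4OHT arrays were the higher ones, with the nearest pair of arrays 0.11 apart and the 4OHT arrays themselves 0.12 apart, and the log2 fold change of 0.21 did not pass the test (standard error 0.084, 95% interval −0.01 to 0.43, adjusted p = 0.292 from limma). *Rag2*, whose protein is needed by RAG1 for cutting and also reads the H3K4me3 mark, had 8.81 and 8.76 with 4OHT, against 8.74 and 8.82 with EtOH. These values overlap, and the log2 fold change was 0.01 (standard error 0.075, 95% interval −0.19 to 0.20, adjusted p = 0.976 from limma). Both intervals leave out a fall as large as that of *Dntt*. *Rag1* and *Rag2* were above the array medians on every array of both treatments.

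**Figure D2:**
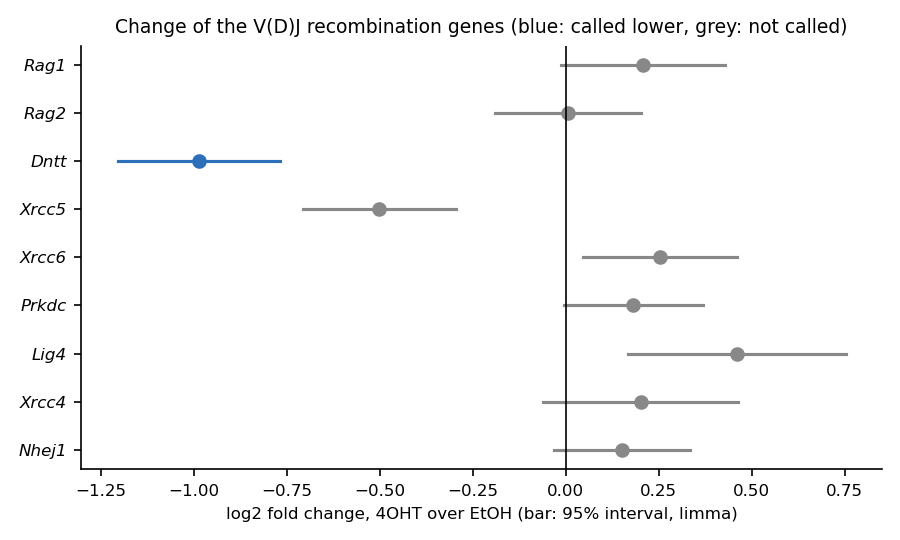
Log2 fold change (4OHT over EtOH) of each measured gene as a point with its 95% interval from limma as a bar (n = 2 arrays per treatment), blue if called lower and grey if not called. *Dntt* lies at −0.99 and is the 1 gene called, *Xrcc5* lies at −0.50, and the other 7 lie between 0.01 and 0.46.

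The windows around the start sites of *Dntt*, *Rag1* and *Rag2* are shown because these are the lymphoid-specific genes of the list, of which *Dntt* was called and the *Rag* genes were not, and because a motif that Ikaros binds contains GGAA. They are RefSeq sequences of the mouse assembly GRCm38.p6, from 250 bases before to 50 bases after the annotated start, read 5′ to 3′ on the strand of the gene. Capitals mark 3 motifs searched on both strands: the core GGAA, the same core preceded by A, which is AGGAA, and the core preceded by G, which is GGGAA. The study also counted GGGA as a motif that Ikaros can bind. GGGA without a following A was not searched here. A match on the opposite strand appears as its reverse complement, and each longer motif contains the core. The windows are chr19:41029025-41029324 (plus strand) for *Dntt*, chr2:101649483-101649782 (minus strand) for *Rag1* and chr2:101624462-101624761 (plus strand) for *Rag2*.
Dntt: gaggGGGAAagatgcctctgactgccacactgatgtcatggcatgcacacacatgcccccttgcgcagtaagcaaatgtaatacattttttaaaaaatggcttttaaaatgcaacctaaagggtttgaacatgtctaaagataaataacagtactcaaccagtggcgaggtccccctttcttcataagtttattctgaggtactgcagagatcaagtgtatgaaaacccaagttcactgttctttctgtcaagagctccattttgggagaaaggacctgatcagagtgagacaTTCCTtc
Rag1: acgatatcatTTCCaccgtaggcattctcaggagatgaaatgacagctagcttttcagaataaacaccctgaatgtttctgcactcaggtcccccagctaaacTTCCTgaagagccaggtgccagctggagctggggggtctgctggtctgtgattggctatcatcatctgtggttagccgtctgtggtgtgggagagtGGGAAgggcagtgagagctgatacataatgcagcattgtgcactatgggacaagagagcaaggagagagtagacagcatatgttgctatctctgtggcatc
Rag2: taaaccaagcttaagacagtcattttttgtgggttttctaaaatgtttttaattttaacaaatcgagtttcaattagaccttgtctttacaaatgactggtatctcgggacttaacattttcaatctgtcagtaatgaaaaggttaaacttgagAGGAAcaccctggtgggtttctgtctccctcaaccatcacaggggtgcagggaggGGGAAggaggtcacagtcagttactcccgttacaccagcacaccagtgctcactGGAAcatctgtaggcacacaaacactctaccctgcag

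The *Dntt* window held 2 GGAA matches, 1 of them a GGGAA that began 246 bases before the start site and the other an AGGAA on the opposite strand that began 43 bases after it. *Rag1* held 3 GGAA matches, with 1 GGGAA that began 51 bases before the start site and 1 AGGAA on the opposite strand that began 147 bases before it. *Rag2* also held 3, with an AGGAA that began 96 and a GGGAA that began 41 bases before the start site. Such letters are common: of 32851 promoter windows of this length, 96% held GGAA, 66.7% AGGAA and 62.7% GGGAA, with a median of 3 GGAA matches. Windows were available for 9 of the 10 genes, 10 windows in all because *Lig4* has 2 starts, and every one held at least 2 GGAA matches. A match describes the letters and is not a binding site.

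No gene of end joining was called, and the measured changes had both signs. The Ku heterodimer, encoded by *Xrcc5* (Ku80) and *Xrcc6* (Ku70), is the first to bind broken ends. *Xrcc5* had 9.57 and 9.66 with 4OHT, against 10.15 and 10.09 with EtOH, so that both 4OHT arrays were the lower ones by at least 0.42. The level was 1.42-fold lower, just short of the test (log2 fold change −0.50 with a standard error of 0.078, 95% interval −0.71 to −0.30, adjusted p = 0.053 from limma). *Xrcc6* had 11.57 and 11.66 with 4OHT, against 11.40 and 11.33 with EtOH, with both 4OHT arrays the higher ones (log2 fold change 0.25, 95% interval 0.05 to 0.46, adjusted p = 0.198 from limma). The 2 subunit genes of Ku therefore had measured changes of opposite sign, neither past the test over all probe sets. *Prkdc*, the gene of DNA-PKcs, the kinase that Ku brings to the ends and that activates Artemis, had 8.61 and 8.56 with 4OHT, against 8.42 and 8.39 with EtOH (log2 fold change 0.18, 95% interval −0.01 to 0.37, adjusted p = 0.282 from limma).

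The ligation step is carried out by DNA ligase IV with its partner XRCC4, assisted by XLF, the product of *Nhej1*. *Lig4* had 11.20 and 11.43 with 4OHT, against 10.79 and 10.92 with EtOH. The arrays did not overlap and the level was 1.37-fold higher without passing the test (log2 fold change 0.46, standard error 0.11, 95% interval 0.17 to 0.75, adjusted p = 0.126 from limma), and its 4OHT arrays lay 0.23 apart, the widest such gap among the 9 genes. *Xrcc4* had 9.57 and 9.35 with 4OHT, against 9.24 and 9.27 with EtOH (log2 fold change 0.20, 95% interval −0.06 to 0.46, adjusted p = 0.372 from limma). *Nhej1* had 8.38 and 8.37 with 4OHT, against 8.22 and 8.22 with EtOH (log2 fold change 0.15, 95% interval −0.03 to 0.33, adjusted p = 0.341 from limma). In all 3 ligation genes both 4OHT arrays were above both EtOH arrays, beside 32.1% of all genes. None of the 3 was called, beside 1.23% of all genes called higher and 2.99% lower. When the fit was limited to probe sets with 1 gene symbol, *Xrcc5* was called lower (adjusted p = 0.00206 from limma) and *Lig4* higher (adjusted p = 0.0101 from limma), so that 2 of the 9 genes were lower and 1 higher, at a background of 8.72% of genes lower and 5.03% higher. *Xrcc5* was also called with a minimum mean log2 value of 6 (adjusted p = 0.0365) and with an intensity trend (adjusted p = 0.0463).

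Around these genes, 5 further lists of break handling held 37 measured genes. No gene of them was called in either direction by limma over all probe sets, beside 2.99% of all genes lower and 1.23% higher. Over probe sets with 1 symbol, 6 of the 37 were called lower and 3 higher, beside the 8.72% and 5.03% of all genes. The counts at an unadjusted p under 0.05 that follow are to be read against the 20.4% of all genes. Among 6 partners of the RAG proteins, 2 had an unadjusted p under 0.05: *Skp2*, whose ubiquitin ligase targets RAG2 for degradation (log2 fold change −0.37, adjusted p = 0.12), and *Cdk2*, whose kinase marks RAG2 for it (0.30, adjusted p = 0.256). *Hmgb1* and *Hmgb2*, which encode DNA-bending cofactors of the RAG complex, had log2 fold changes of 0.11 and 0.16. The list median was 0.12. Of 6 accessory end joining genes, *Cyren*, a gene whose peptide inhibits end joining, alone had an unadjusted p under 0.05 (log2 fold change −0.36, adjusted p = 0.134), and the median was −0.04. *Paxx*, a paralogue of the *Xrcc4* and *Nhej1* genes, had a log2 fold change of 0.06.

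Among 12 measured genes of break signalling, 4 had an unadjusted p under 0.05, of which *Nbn*, a subunit gene of the MRN complex, was nearest to the test with 9.07 and 9.08 on the 4OHT arrays, against 9.54 and 9.48 on the EtOH arrays (log2 fold change −0.43, adjusted p = 0.0614). The log2 fold change was −0.29 for *Trp53bp1* (adjusted p = 0.124), whose product shields ends from resection, −0.28 for *Shld2* of the shieldin complex (adjusted p = 0.192) and 0.24 for *Mdc1* (adjusted p = 0.206). *Atm*, the kinase gene at the head of the response, had a log2 fold change of −0.08. The median was −0.02. Of 5 genes of alternative end joining, the route that uses short homologies, 3 had an unadjusted p under 0.05. *Polq*, its polymerase gene, had 9.39 and 9.31 with 4OHT, against 8.95 and 8.77 with EtOH (log2 fold change 0.50, adjusted p = 0.0793), while *Parp1* (−0.39, adjusted p = 0.105) and *Lig3* (−0.36, adjusted p = 0.0915) lay on the other side of 0. The median was −0.02. Of 8 genes of homologous recombination, *Bard1* (log2 fold change 0.44, adjusted p = 0.0816) and *Rad51c* (0.37, adjusted p = 0.0825) had an unadjusted p under 0.05, and the median was 0.07. The log2 fold changes on these 5 lists ran from −0.43 to 0.50, and that of *Dntt* lay outside this range. Of the 37 genes, 12 had an unadjusted p under 0.05, beside 20.4% of all genes.

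**Figure D3:**
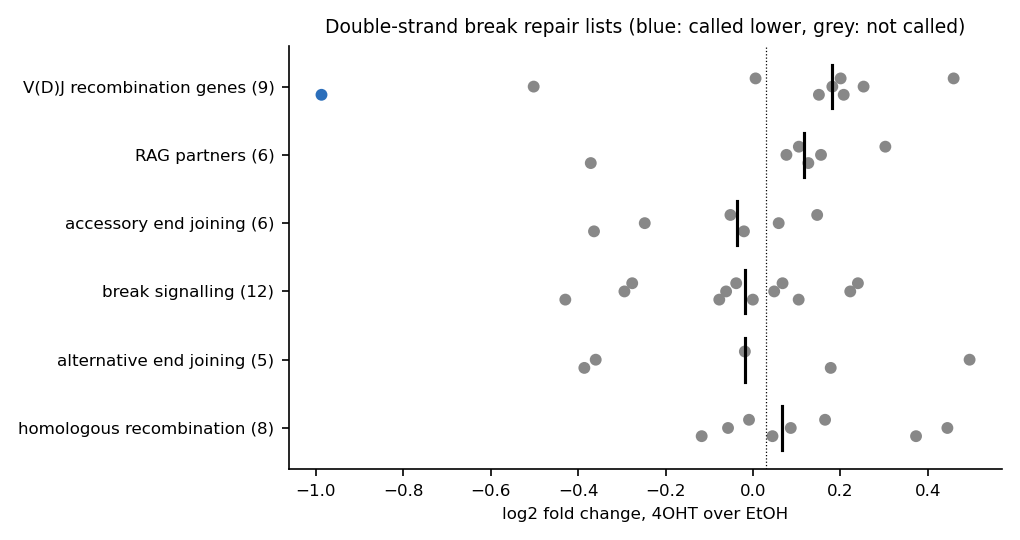
Log2 fold change (4OHT over EtOH) of the measured genes of the V(D)J list and of 5 lists of break handling, with the number measured in brackets. Each point is a gene, blue if called lower and grey if not called, black lines are list medians and the dotted line is the median of all genes (0.03); *Dntt* at −0.99 lies apart, and the 37 other genes of the 5 lists lie between −0.43 and 0.50.

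The genes of transcription factors known to act on the *Rag* and *Dntt* loci were compared as a further list. Of 16 measured, 2 were called higher, 1 lower and 13 did not pass the test, beside 1.23% of all genes higher and 2.99% lower. At an unadjusted p under 0.05 from limma there were 9 of the 16, beside 20.4% of all genes. The median log2 fold change was 0.09. Over probe sets with 1 symbol, 4 of the 16 were called higher and 2 lower, beside 5.03% of all genes higher and 8.72% lower. *Gfi1b*, a repressor that lowers *Rag* transcription in mouse B-cell progenitors, had 8.13 and 8.38 with 4OHT, against 10.27 and 10.40 with EtOH. It was 4.23-fold lower, with wide separation of the arrays (log2 fold change −2.08 with a standard error of 0.12, adjusted p = 0.00952 from limma). *Foxo1*, an activator of *Rag* transcription in the same cells, had 10.43 and 10.53 with 4OHT, against 9.56 and 9.52 with EtOH, and was 1.92-fold higher (log2 fold change 0.94 with a standard error of 0.079, adjusted p = 0.0166 from limma). *Elf1*, the gene of an ETS factor that binds the mouse *Dntt* promoter, had 11.02 and 10.98 with 4OHT, against 10.31 and 10.28 with EtOH, and was 1.63-fold higher (log2 fold change 0.71 with a standard error of 0.071, adjusted p = 0.0215 from limma). Of the remaining 13, *Runx1* (log2 fold change −0.37, adjusted p = 0.105), *Satb1* (0.34, adjusted p = 0.111) and *Bcl11b* (0.30, adjusted p = 0.141) had the largest measured changes, and the E-protein genes *Tcf3* and *Tcf12* had 0.05 and 0.11. Without EtOH replicate 1 or 2 no gene of the array was called, so that *Gfi1b*, *Foxo1* and *Elf1* were not either (adjusted p of 0.112 and 0.133 for *Gfi1b*, 0.131 and 0.15 for *Foxo1* and 0.15 and 0.168 for *Elf1*). *Foxo1* also missed the test without 4OHT replicate 2 (0.0721), and *Elf1* without 4OHT replicate 1 (0.0738) or 2 (0.0852).

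**Figure D4:**
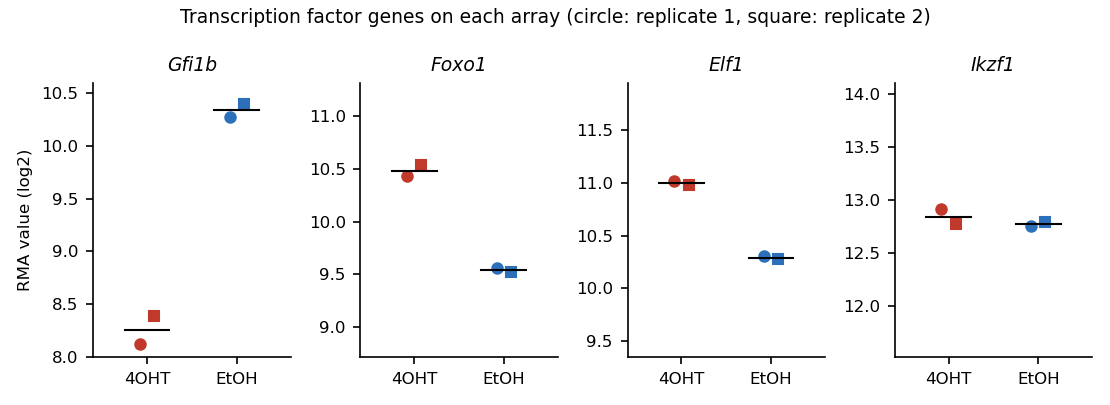
RMA values (log2) of the transcription factor genes *Gfi1b*, *Foxo1* and *Elf1* and of *Ikzf1* on each array, 4OHT in red on the left and EtOH in blue on the right, circles for replicate 1, squares for replicate 2 and black lines for the means (n = 2 arrays). All panels span the same 2.6 log2 units; *Gfi1b* is lower with 4OHT, *Foxo1* and *Elf1* are higher, and the arrays of *Ikzf1* overlap.

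No gene beside *Dntt* or the *Rag* genes was called. By RefSeq order the measured protein-coding genes nearest to *Dntt* are *Zfp518a* and *Blnk* on one side and *Opalin* and *Tll2* on the other. *Blnk*, an adaptor gene of B-cell receptor signalling, had 6.23 and 5.95 with 4OHT, against 6.31 and 6.25 with EtOH (log2 fold change −0.19, adjusted p = 0.451), and *Zfp518a*, a zinc finger gene, had a log2 fold change of −0.01. *Opalin*, a myelin gene, and *Tll2* had log2 fold changes of 0.11 and 0.01. *Blnk*, *Opalin* and *Tll2* had means below the array medians in both treatments, and without detection calls it is not known whether they were expressed. Beside *Rag2* and *Rag1* lie *Lrrc4c* and *Iftap* on one side and *Traf6* and *Prr5l* on the other. *Traf6*, a ubiquitin ligase gene of innate signalling next to *Rag1*, had 10.93 and 10.95 with 4OHT, against 10.64 and 10.74 with EtOH (log2 fold change 0.25, adjusted p = 0.193), close to the 0.21 of *Rag1*. *Iftap*, *Lrrc4c* and *Prr5l* had log2 fold changes of 0.01, 0.05 and −0.03. The means of *Lrrc4c* (4.24 with 4OHT, 4.18 with EtOH) and *Prr5l* (4.69 and 4.72) were also below the array medians. Whether these genes were expressed is likewise not known. None of these 8 neighbours was called by limma, beside 2.99% of all genes called lower and 1.23% higher. *Traf6* alone had an unadjusted p under 0.05, beside 20.4% of all genes.

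**Figure D5:**
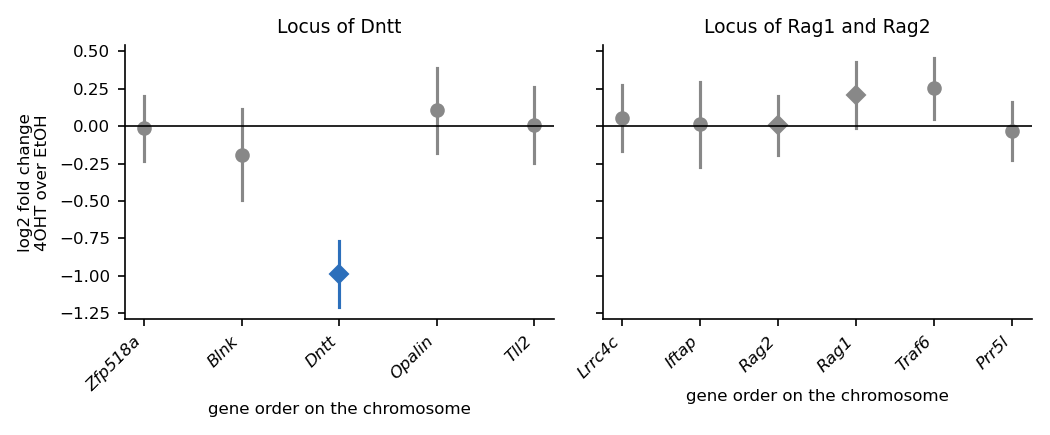
Log2 fold change (4OHT over EtOH) with its 95% interval from limma for *Dntt* and its 4 nearest measured neighbours (left) and for *Rag2* and *Rag1* with their 4 (right), in order along the chromosome and not to scale of distance. Diamonds are genes of the V(D)J list, circles their neighbours, blue is called lower and grey not called; of the 11 genes *Dntt* alone is called.

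*Dntt* and the *Rag* genes are also used by developing B cells, and the markers of other blood cells were therefore read on the same arrays. Of 7 measured B-cell markers *Igll1*, a gene of the surrogate light chain, was called lower, averaging 6.93 with 4OHT and 7.76 with EtOH (log2 fold change −0.82, adjusted p = 0.0324 from limma). The other 6 did not pass the test and all had log2 fold changes above 0, the largest being 0.28 for *Vpreb1* and 0.27 for *Cd79b*, both with an unadjusted p under 0.05. The linear values of the list summed to 565 and 586 with 4OHT, against 602 and 630 with EtOH, and without *Igll1*, left out after its value was seen, to 448 and 458 with 4OHT, against 398 and 400.2 with EtOH. The defining genes *Cd79a*, *Ms4a1* and *Ebf1* had values of 4.69 to 5.17 on the 4 arrays, and *Pax5* had 6.64 to 6.79, all below the array medians. Of 6 myeloid markers *Lyz2* was called lower (log2 fold change −1.24) and *Itgam* higher (0.68), with sums of 448 and 450 with 4OHT, against 449 and 437 with EtOH. The marker calls stand beside 2.99% of all genes called lower and 1.23% called higher. An unadjusted p under 0.05 was found for 20.4% of all genes. None of 5 NK-cell and 3 erythroid markers was called, nor had any of them an unadjusted p under 0.05. The NK-cell sums were 3767 and 4976 with 4OHT, against 3704 and 3263 with EtOH, most of it from *Gzma*, while *Ncr1* and *Klrb1c* were at 4.10 to 5.05, and the erythroid sums were 331 to 334 with 4OHT and 323 to 330 with EtOH. Their part in the change of *Dntt* was not tested.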

How the data were processed

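Total RNA (150 ng a sample) was labelled with biotin and hybridised to 4 arrays. The deposited log2 values were made by the submitters with Affymetrix Expression Console 1.1 and RMA, according to their processing notes. RMA subtracts background, forces a common signal distribution on the arrays and combines probes into probe sets, so a change shared by most genes cannot be seen and differences of dim genes are compressed. No genome build for the probe sets is stated. Treatments were taken from the sample titles.

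Of 35556 probe sets, 21789 have 1 symbol, 1621 several and 12146 none, and 21698 symbols were updated by Entrez number through RefSeq (GRCm38.p6). The fit (R 4.3.3, limma 3.58.1, lmFit and eBayes, two-sided, no block, 2 residual degrees of freedom) covered all probe sets, with Benjamini-Hochberg adjustment over them. It was tested on simulated data with changes larger than any of the V(D)J genes, so that test does not cover changes of their size. The number of arrays limits the precision.

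The 10 genes, the 11 further lists and the rules for naming genes were chosen with earlier results of these data known. Named were all 10 genes, called or most changed list members, the 2 nearest measured genes on each side, the 3 genes most like a called one, and *Ikzf1*. Markers of other cells were named to give their levels. Alternatives were a replicate block, equal array medians, a repeated quantile normalization, probe sets with 1 symbol, a minimum mean of 6, averaging the probe sets of a gene, an intensity trend, thresholds of 0.01 and 0.1, and leaving out each array.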

Additional observations from a re-analysis of the deposited data

How the results depend on the processing

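Of the V(D)J genes, 1 was called lower and none higher, beside 597 and 246 of all genes. With the replicate number as a block, 0 of the V(D)J genes were lower (*Dntt* at an adjusted p of 0.074, *Foxo1* at 0.0716 and *Elf1* at 0.0891 lost their calls, *Gfi1b* at 0.0435 did not), beside 25 and 5 of all genes. The labels do not say that the number marks a shared culture, and deviations of same-numbered arrays correlated at −0.134 over probe sets. The crossed pairing, chosen after seeing the data, put each 4OHT array in a block with the EtOH array of the other number. With it, 389 genes were called lower and 146 higher. *Dntt* (adjusted p = 0.0298 from limma), *Gfi1b* (0.0211), *Foxo1* (0.0322) and *Elf1* (0.0447) kept their calls. Over probe sets with 1 symbol the counts were 2 lower and 1 higher among the V(D)J genes and 1739 and 1002 among all genes. With a minimum mean of 6, 2 V(D)J genes were lower, with 799 lower and 350 higher of 14767 genes, and with an intensity trend 2 were lower, with 640 and 279 of all genes. At a threshold of 0.01, 0 V(D)J genes were lower, with 59 and 14 of all genes, and at 0.1, 2 were lower, with 1076 and 502 of all genes. Without 1 array, 0 V(D)J genes were called, with 0 to 178 lower and 0 to 63 higher genes on the whole array, and with 0 of both without EtOH replicate 1 or 2 (2819 and 2586 genes at an unadjusted p under 0.05). These fits have 1 residual degree of freedom and assume that the lone array varies like the other treatment's. *Rag2* changed sign with equal array medians (log2 fold change −0.0161, adjusted p = 0.949 from limma) and without 1 array (−0.0311 to 0.043), and no other V(D)J gene did. A sign could change only with a new normalization or without an array, because the other alternatives left the log2 fold changes of these genes as they were. The causes of these shifts were not tested. Without detection calls, the arrays do not show which dim genes were above background.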
